A study of Mus musculus with 8 samples.

Results

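The miR-17-92 cluster is a polycistron, 1 primary transcript folded into several hairpins, each of which Drosha and Dicer cut into a duplex of a 5p and a 3p strand. One strand is usually kept by an Argonaute protein and the other is mostly lost, so the arms of a hairpin accumulate to different levels although they are transcribed together. The cluster is known for promoting proliferation and survival, as the oncomir-1 locus of lymphomas and in early development, and miR-17 family members are abundant in embryonic stem cells. AGO2 is the mammalian Argonaute with strong slicing activity, and AGO1 is a related protein that binds miRNAs without efficient slicing. The 10 mature miRNAs described here are both arms of the miR-17, miR-18a, miR-19a, miR-20a and miR-19b-1 hairpins, that is the cluster without miR-92a. They were chosen by name, as 10 of the 1915 mature mouse miRNAs in the deposited count table.

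Small RNA was sequenced from mouse embryonic stem cells of a 129/Ola background in 8 libraries, 4 groups of 2. The induced AGO1 group (A and B) is an Ago2 knockout line with an inducible ectopic AGO1 gene, treated with doxycycline at 1 µg/mL, and the uninduced AGO1 group (A and B) is the same line without doxycycline. By its label that line was made from Ago2 knockout line 1 and carries the letter A, so both AGO1 groups rest on 1 line and share its loss of Ago2. The Ago2 knockout group holds knockout lines 1 and 2, 1 library each, and the wild type group holds E14 cells (A and B). Per the labels' protocols AGO1 lines were kept in puromycin, and it is not stated whether A and B are separate cultures, so p-values measure the spread between these libraries, which may be technical. The genotypes rest on the labels, since neither Ago2 mRNA nor AGO protein was analysed here.

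The sequences fall into few seed families, the seed being bases 2 to 8 that pair with target RNAs, shown here in capitals. They are RefSeq mature sequences on GRCm38.p6, which hold 9 of the 10 members (mmu-miR-19a-5p is named only), and they are shown because near-identical members turned out to differ in level. The arms that dominate their hairpins were these, with miR-17-5p and miR-20a-5p sharing a seed and the miR-19 arms sharing another.
mmu-miR-17-5p: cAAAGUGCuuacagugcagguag
mmu-miR-20a-5p: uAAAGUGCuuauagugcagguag
mmu-miR-18a-5p: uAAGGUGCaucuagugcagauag
mmu-miR-19a-3p: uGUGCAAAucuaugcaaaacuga
mmu-miR-19b-3p: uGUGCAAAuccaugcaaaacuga
The less abundant arms with a sequence were these.
mmu-miR-17-3p: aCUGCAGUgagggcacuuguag
mmu-miR-18a-3p: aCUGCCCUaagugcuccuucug
mmu-miR-20a-3p: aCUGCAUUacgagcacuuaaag
mmu-miR-19b-1-5p: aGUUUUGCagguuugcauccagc
Counted from 1 at the 5′ end, miR-17-5p and miR-20a-5p differ by C1U and C12U, and miR-19a-3p and miR-19b-3p by U11C. The seed of miR-18a-5p differs from that of miR-20a-5p by G4A, and outside the seed this pair differs by A9U, C11A and A20G. Reads with errors can be assigned to the wrong one of such pairs, and how reads matching several miRNAs were counted is not given in the sources used here.

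On GRCm38 the 5 hairpins lie within 721 bp of chromosome 14, plus strand, in the order Mir17 (115043671 to 115043754), Mir18 (115043851 to 115043946), Mir19a (115044000 to 115044081), Mir20a (115044157 to 115044263) and Mir19b-1 (115044305 to 115044391). All 5 overlap the exon of the 1 annotated transcript of Mir17hg (115042879 to 115046727), the long non-coding host gene. The mature miR-19b-3p sequence has 2 copies, the second from Mir19b-2 on chromosome X, so its counts belong to both loci, whereas miR-19b-1-5p comes from chromosome 14. The miR-18a hairpin, with 5p as its main arm, and the miR-19b-1 hairpin, with 3p as its main arm, are shown with both mature arms in capitals, because the balance of their arms differed between the groups.
Mir18: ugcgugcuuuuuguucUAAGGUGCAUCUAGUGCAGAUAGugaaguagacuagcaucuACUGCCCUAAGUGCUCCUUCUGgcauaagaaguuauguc
Mir19b-1: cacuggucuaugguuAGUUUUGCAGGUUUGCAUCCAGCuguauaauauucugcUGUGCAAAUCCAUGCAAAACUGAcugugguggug

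Library totals ranged from 163467 counts (knockout line 2) to 1326638 counts (induced A). Levels are in CPM, that is counts relative to the library total after its adjustment by TMM factors of 0.881 to 1.22, and 3 counts, the limit that a count of 0 allows, equalled 2.57 to 15.1 CPM. CPM values are relative and cannot show a change shared by all miRNAs. Of 22 stem cell miRNAs fixed as markers, 21 had counts and 16 had counts in every library, at 25.4 to 30.8% of all counts. Arms of miR-290 to miR-295 made up most of this sum, with miR-295-3p at 209925 counts in induced A. The sum thus does not show how the sparse miR-302 and miR-367 arms moved. Among these, miR-302d-3p had 100 and 72 counts in the induced line and 159 and 70 in the uninduced line. It had 91 and 8 in knockout lines 1 and 2 and 26 and 24 in wild type. Fibroblast markers (4 of 5 with counts, miR-214-3p at 0) held 0.173 ± 0.00890% of counts in the induced line, 0.0356 ± 0.00415% in the uninduced line, 0.0505 ± 0.00139% in the knockout and 0.328 ± 0.0638% in wild type (SD, n = 2), and blood markers (2 of 4 with counts, miR-223-3p and miR-451a at 0) held 0.267 ± 0.0183%, 0.508 ± 0.0489%, 0.416 ± 0.0479% and 0.141 ± 0.00200%. miR-143-3p made up 76.2 to 98.4% of the fibroblast marker counts of a library. The other fibroblast markers summed to 0.00784 and 0.00644% of counts in the induced line, 0.00706 and 0.00854% in the uninduced line, 0.0123 and 0.00734% in the knockout lines and 0.00442 and 0.00592% in wild type, so the list did not move as 1. The part of these markers in the results was not tested.

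Together the 10 members held under 1% of each library. They had 6178 and 4378 counts in the induced line, 4315 and 1441 in the uninduced line, 2388 and 1108 in knockout lines 1 and 2, and 6094 and 6519 in wild type. Their share of all counts was 0.429 ± 0.0523% in the induced line, 0.539 ± 0.0662% in the uninduced line, 0.671 ± 0.00906% in the knockout and 0.613 ± 0.0406% in wild type (SD, n = 2). miR-19b-3p, miR-17-5p and miR-20a-5p were the most abundant members in every library, and miR-20a-3p and miR-19b-1-5p were among the rarest. All arms with a sequence are 22 or 23 nucleotides long, so these levels need no length scaling.

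**Figure D1:**
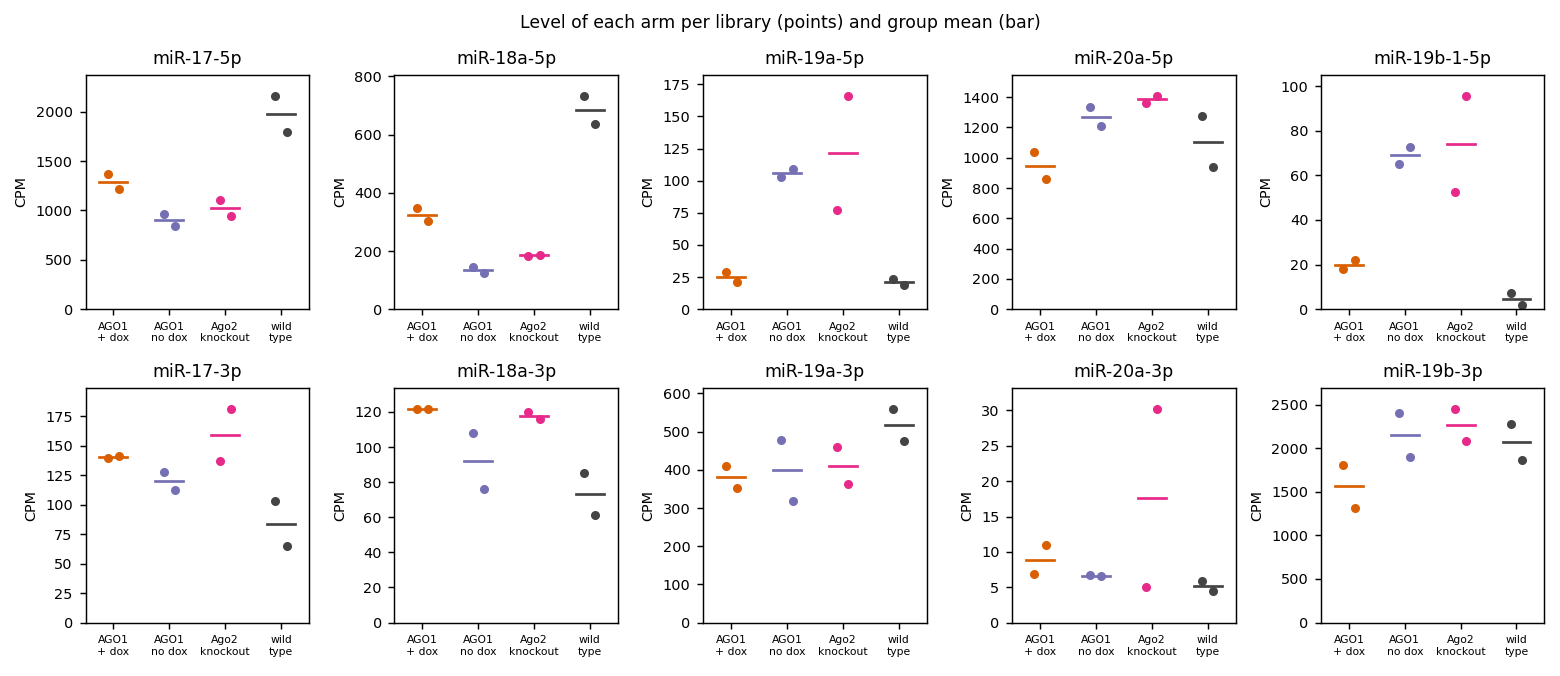
Level in CPM (linear axis from 0) of the 10 arms, 5p arms in the upper row and 3p arms in the lower row. Points are the 2 libraries of each group and bars are group means, with the induced AGO1 line at the left and wild type at the right of each panel. miR-18a-5p is highest in wild type (733 and 637 CPM), while miR-19a-5p and miR-19b-1-5p are highest in the uninduced line and the knockout lines.

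The knockout lines were set against wild type cells to ask which arms of the cluster differ without AGO2. The 5p arms of miR-17 and miR-18a were lower in the knockout, and 3 of the rare arms, miR-19b-1-5p, miR-19a-5p and miR-17-3p, were higher. The most abundant arms of the other 3 hairpins, miR-19a-3p, miR-19b-3p and miR-20a-5p, were not called in either direction. miR-20a-3p did not pass edgeR's filter on low counts and was not tested, which leaves 9 members. Of these 9, 3 were higher and 2 were lower at an adjusted p under 0.05 (edgeR quasi-likelihood test, Benjamini-Hochberg over 475 miRNAs). In this comparison 57.7% of all tested miRNAs were called, 25.5% as higher and 32.2% as lower. The median log2 fold change was 0.32 over the 9 members and -0.12 over all 475. The libraries of the groups did not overlap for 8 of the 9 members, and for 77.3% of all tested miRNAs, so both shares lie near the background.

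miR-18a-5p, whose seed is that of miR-17-5p but for 1 base, had 185 and 186 CPM in knockout lines 1 and 2, against 733 and 637 CPM in wild type A and B. Both knockout lines lay below both wild type libraries, and the fitted difference was 3.69-fold (log2 fold change -1.89 ± 0.23, edgeR adjusted p = 9.83e-05). The SE given with each log2 fold change was derived here from the F statistic and is approximate. miR-17-5p, the founding member of the miR-17 seed family and a repressor of cell cycle inhibitors such as p21, had 1108 and 941 CPM in the knockout lines, against 2161 and 1796 CPM in wild type. The groups did not overlap (-0.95 ± 0.20, edgeR adjusted p = 0.00268). Leaving out wild type A ended the miR-17-5p call (-0.63, edgeR adjusted p = 0.0576).

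miR-20a-5p carries the same seed as miR-17-5p and differs from it at the 2 positions named above. It had 1365 and 1409 CPM in the knockout lines, against 1276 and 939 CPM in wild type. The knockout libraries were both the higher ones, on average by less than the wild type libraries differed from each other (0.32 ± 0.21, edgeR adjusted p = 0.197). The difference was called as higher once wild type A was left out (0.74, edgeR adjusted p = 0.0374) or TMM factors were not used (0.64, edgeR adjusted p = 0.0133). miR-19b-3p, which in mouse lymphoma models is a main oncogenic product of the cluster, had 2449.8 and 2088 CPM in the knockout lines, against 2277 and 1864 CPM in wild type, and the groups overlapped (0.13 ± 0.22, edgeR adjusted p = 0.617). miR-19a-3p, which has the same seed, had 459 and 362 CPM in the knockout lines, against 559 and 477 CPM in wild type. It was lower in both knockout lines without passing the test (-0.33 ± 0.25, edgeR adjusted p = 0.287).

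The rare 5p arms of the miR-19 hairpins moved most. miR-19b-1-5p, the strand opposite miR-19b-3p, had 52.4 and 95.6 CPM in the knockout lines, against 7.12 and 1.80 CPM in wild type. Both knockout values were far above both wild type values, which rest on 6 and 2 counts. Over summed counts, 40 in the knockout lines against 8 in wild type, the ratio was 16.3 with a 95% exact binomial interval of 7.53 to 40.3, which covers counting error only. The edgeR log2 fold change of miR-19b-1-5p was 4.02 ± 0.59 (adjusted p = 0.000361), and it was 5.33 without wild type A and 3.26 without wild type B. The wild type counts lie under the filter's minimum of 10. In each comparison with wild type this arm was thus tested only through the groups where it is higher, which limits what its calls show.

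miR-19a-5p, the strand opposite miR-19a-3p, had 77.3 and 166 CPM in the knockout lines, against 23.7 and 18.9 CPM in wild type. The groups did not overlap, although knockout line 2 was at more than double the level of line 1 (2.45 ± 0.43, edgeR adjusted p = 0.00111). miR-17-3p had 137 and 181 CPM in the knockout lines, against 103 and 64.8 CPM in wild type, and was also higher in both knockout lines (0.91 ± 0.32, edgeR adjusted p = 0.0340). Leaving out wild type B ended the miR-17-3p call (0.60, edgeR adjusted p = 0.202), as did leaving out knockout line 2 (0.75, edgeR adjusted p = 0.0674), a fit of only these 2 groups (1.09, edgeR adjusted p = 0.0674) and the use of no filter on low counts (0.83, edgeR adjusted p = 0.0756). miR-18a-3p, the strand opposite miR-18a-5p, had 119.7 and 116 CPM in the knockout lines, against 85.4 and 61.2 CPM in wild type. It was higher in both knockout lines without passing the test (0.69 ± 0.32, edgeR adjusted p = 0.0849), and was called once wild type A was left out (1.12, edgeR adjusted p = 0.0441) or TMM factors were not used (1.00, edgeR adjusted p = 0.0176). miR-20a-3p, the rarest arm of the cluster outside wild type, had 4.99 and 30.2 CPM in the knockout lines, from 2 and 6 counts, against 5.93 and 4.50 CPM in wild type, from 5 counts each. The knockout lines stood on either side of the wild type values.

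**Figure D2:**
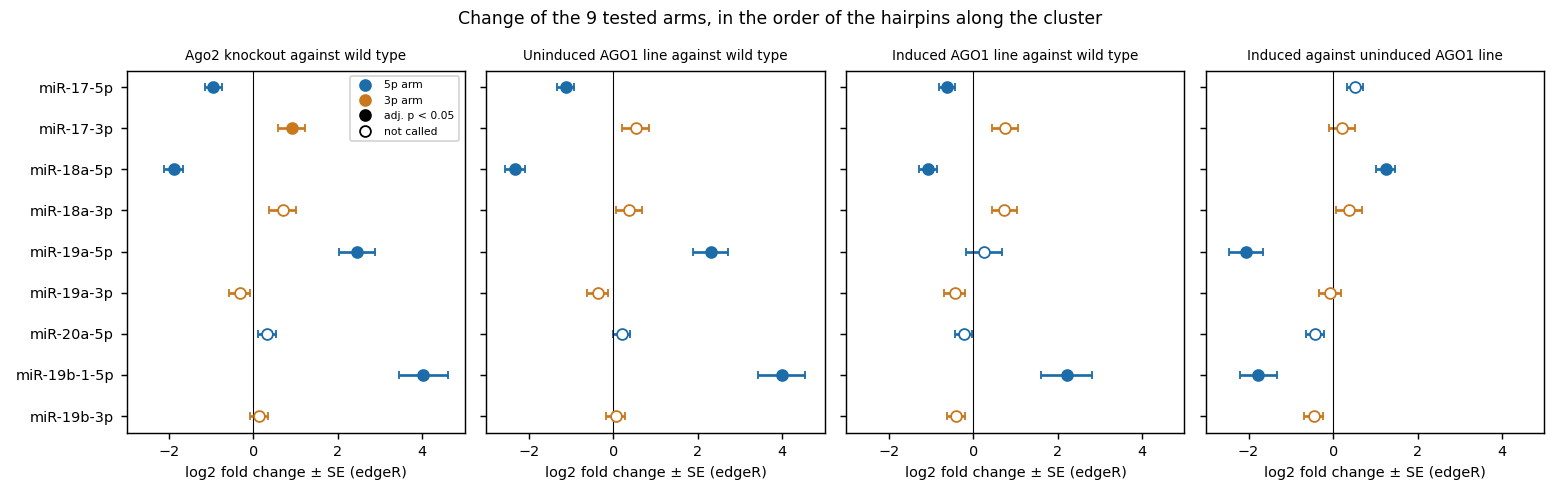
edgeR log2 fold change (points) with its approximate SE (bars) of the 9 tested arms in 4 comparisons, in the order of the hairpins along the cluster, with 5p arms in blue and 3p arms in orange. Filled points have an adjusted p under 0.05. miR-17-5p and miR-18a-5p lie left of 0 in the 3 comparisons with wild type, and miR-19b-1-5p lies right of 0 in all 3.

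The uninduced AGO1 line, by its label made from knockout line 1, was compared with wild type. It differs from wild type in Ago2, in the AGO1 gene and in puromycin, and the parts of these cannot be told apart. This comparison shares the wild type libraries with the one above, and its line derives from a knockout line used there. The values thus stand side by side and are not independent. Of the 9 members, 2 were higher, miR-19b-1-5p and miR-19a-5p, and 2 were lower, miR-18a-5p and miR-17-5p, and 59.2% of all tested miRNAs were called (25.9% higher and 33.3% lower). The groups did not overlap for 5 of the 9 members and for 82.1% of all tested miRNAs, with a median log2 fold change of 0.20 over the members and -0.14 over all. miR-18a-5p had 145 and 126 CPM in the uninduced line, against 733 and 637 CPM in wild type, well below both wild type libraries (-2.33 ± 0.23, edgeR adjusted p = 2.39e-05). miR-17-5p had 969 and 839.9 CPM in the uninduced line, against 2161 and 1796 CPM in wild type, again without overlap (-1.13 ± 0.20, edgeR adjusted p = 0.000814).

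miR-19a-5p had 103 and 109 CPM in the uninduced line, against 23.7 and 18.9 CPM in wild type, and every uninduced value was the higher (2.31 ± 0.41, edgeR adjusted p = 0.000958). miR-19b-1-5p had 65.2 and 72.7 CPM in the uninduced line, against 7.12 and 1.80 CPM in wild type, with no overlap (3.98 ± 0.56, edgeR adjusted p = 0.000201). The miR-19b-1-5p log2 fold change was 5.24 without wild type A and 3.21 without wild type B. miR-17-3p had 128 and 112 CPM in the uninduced line, against 103 and 64.8 CPM in wild type, and its difference of 0.53 ± 0.32 (edgeR adjusted p = 0.166) became a call on leaving out wild type A (1.04, edgeR adjusted p = 0.0466). The remaining 4 tested members, miR-18a-3p and the abundant arms of miR-19a, miR-19b and miR-20a, had log2 fold changes of 0.36, -0.37, 0.06 and 0.20, none of which passed the test.

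Set against the knockout lines, the uninduced AGO1 line gave no call for the members, as for all 475 miRNAs by edgeR (0 called, 0% of those tested, with 72 at an unadjusted p under 0.05, and 8 by DESeq2). The members' log2 fold changes ran from -0.44 to -0.04, none of the 9 had an unadjusted p under 0.05, and DESeq2 called none of them. The groups did not overlap for 4 of the 9 members, against 44.6% of all tested miRNAs. The most negative value was that of miR-18a-5p, with 145 and 126 CPM in the uninduced line, against 185 and 186 CPM in the knockout lines (-0.44 ± 0.24, edgeR adjusted p = 0.388). A test that misses its threshold does not show that these groups are alike.

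The induced was compared with the uninduced AGO1 line, which differ by doxycycline. No group had doxycycline without the AGO1 gene, so the parts of the drug and of AGO1 cannot be told apart. miR-18a-5p was higher in the induced line, and miR-19a-5p and miR-19b-1-5p were lower. Each of these 3 differences has the opposite sign to the one between knockout and wild type, a comparison that uses other libraries in the same fit. The share of all tested miRNAs with opposite signs was not computed, so this is not shown to be particular to the cluster. Of the 9 members, 1 was higher and 2 were lower, and 28.8% of all tested miRNAs were called (21.1% higher and 7.79% lower). The groups did not overlap for 8 of the 9 members and for 72.4% of all tested miRNAs. The median log2 fold change was -0.08 over the members and 0.03 over all.

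miR-18a-5p had 346 and 301.9 CPM in the induced line, against 145 and 126 CPM in the uninduced line. Both induced libraries were above both uninduced ones (1.25 ± 0.22, edgeR adjusted p = 0.00275), and the call was lost without uninduced B (1.00, edgeR adjusted p = 0.0618). miR-19a-5p had 29.1 and 20.9 CPM in the induced line, against 103 and 109 CPM in the uninduced line, a 4.17-fold lower fitted level without overlap (-2.06 ± 0.40, edgeR adjusted p = 0.00399). miR-19b-1-5p had 17.96 and 21.9 CPM in the induced line, against 65.2 and 72.7 CPM in the uninduced line. It was lower in both induced libraries (-1.77 ± 0.44, edgeR adjusted p = 0.0141). Its call was lost without induced A (-1.58, edgeR adjusted p = 0.112), induced B (-1.91, edgeR adjusted p = 0.0761) or uninduced A (-1.74, edgeR adjusted p = 0.0724).

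miR-17-5p had 1368 and 1216 CPM in the induced line, against 969 and 839.9 CPM in the uninduced line. The induced values were both higher without passing the test (0.51 ± 0.19, edgeR adjusted p = 0.0744). It was called without knockout line 1 (0.54, edgeR adjusted p = 0.0181) or 2 (0.52, edgeR adjusted p = 0.0255) and with only these 2 groups in the fit (0.48, edgeR adjusted p = 0.0217). miR-20a-5p, with the same seed, had 1036 and 859 CPM in the induced line, against 1337 and 1207 CPM in the uninduced line, so its induced values were both the lower (-0.43 ± 0.21, edgeR adjusted p = 0.147). It was called as lower without TMM factors (-0.63, edgeR adjusted p = 0.0258) and with only the 2 groups (-0.45, edgeR adjusted p = 0.0323). miR-19b-3p had 1811 and 1316 CPM in the induced line, against 2404 and 1898 CPM in the uninduced line (-0.46 ± 0.22, edgeR adjusted p = 0.145). Its libraries did not overlap either, and it was called without knockout line 2 (-0.45, edgeR adjusted p = 0.0473), without TMM factors (-0.67, edgeR adjusted p = 0.0296) and with only the 2 groups (-0.49, edgeR adjusted p = 0.0347). miR-19a-3p overlapped between the groups, with 409 and 353 CPM in the induced line, against 479 and 317 CPM in the uninduced line (-0.08 ± 0.25, edgeR adjusted p = 0.858). The 3p arms of miR-17 and miR-18a were slightly higher in every induced library, at 0.22 and 0.37 on the log2 scale, and were not called.

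The induced line was also set against wild type, from which it differs in Ago2, in the AGO1 gene, in puromycin and in doxycycline, and the parts of these cannot be told apart. Of the 9 members, 1 was higher, miR-19b-1-5p, and 2 were lower, miR-18a-5p and miR-17-5p, and 38.9% of all tested miRNAs were called (19.2% higher and 19.8% lower). The groups did not overlap for 7 of the 9 members and for 76% of all tested miRNAs, with a median log2 fold change of -0.22 over the members and 0.01 over all. miR-18a-5p had 346 and 301.9 CPM in the induced line, against 733 and 637 CPM in wild type, with the induced values between those of the uninduced line and wild type (-1.08 ± 0.21, edgeR adjusted p = 0.00359). Its call ended on leaving out wild type A (-0.80, edgeR adjusted p = 0.0629), induced A (-1.03, edgeR adjusted p = 0.0580) or induced B (-0.85, edgeR adjusted p = 0.103). miR-17-5p had 1368 and 1216 CPM in the induced line, against 2161 and 1796 CPM in wild type, also without overlap (-0.61 ± 0.19, edgeR adjusted p = 0.0302). Its call was lost on leaving out any 1 of induced A (-0.56, edgeR adjusted p = 0.234), induced B (-0.40, edgeR adjusted p = 0.346), uninduced A (-0.56, edgeR adjusted p = 0.0914), uninduced B (-0.56, edgeR adjusted p = 0.100), wild type A (-0.30, edgeR adjusted p = 0.359) and wild type B (-0.75, edgeR adjusted p = 0.0550), and also with no filter on low counts (edgeR adjusted p = 0.0700).

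miR-19b-1-5p had 17.96 and 21.9 CPM in the induced line, against 7.12 and 1.80 CPM in wild type, and both induced values were the higher. The ratio of its summed counts, 43 against 8, was 4.84 with a 95% exact binomial interval of 2.25 to 11.9, and the edgeR log2 fold change was 2.21 ± 0.59 (adjusted p = 0.0155). The miR-19b-1-5p value was 3.51 without wild type A, and the call ended on leaving out wild type B (1.45, edgeR adjusted p = 0.125) or induced B (2.18, edgeR adjusted p = 0.0711). miR-19a-5p, in contrast to its level in the other Ago2-deficient groups, had 29.1 and 20.9 CPM in the induced line, against 23.7 and 18.9 CPM in wild type, and the groups overlapped (0.25 ± 0.43, edgeR adjusted p = 0.678). The 3p arms of miR-17 (0.75 ± 0.30, edgeR adjusted p = 0.0754) and miR-18a (0.73 ± 0.29, edgeR adjusted p = 0.0720) were higher in both induced libraries than in both wild type ones and were not called. Both were called with only the 2 groups in the fit (0.83, edgeR adjusted p = 0.0147 for miR-17-3p and 0.81, edgeR adjusted p = 0.0172 for miR-18a-3p) and without knockout line 1 (0.79, edgeR adjusted p = 0.0124 for miR-17-3p and 0.77, edgeR adjusted p = 0.0176 for miR-18a-3p) or 2 (0.77, edgeR adjusted p = 0.0131 for miR-17-3p and 0.76, edgeR adjusted p = 0.0193 for miR-18a-3p). Without wild type A, miR-17-3p was also called (1.29, edgeR adjusted p = 0.0384).

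The balance of the arms within a hairpin does not depend on how libraries are scaled. The 3p arm made up 26.0 and 28.7% of the miR-18a counts in the induced line, 42.6 and 37.7% in the uninduced line, 39.3 and 38.3% in the knockout lines and 10.4 and 8.76% in wild type. Every library of the 3 Ago2-deficient groups lay above both wild type libraries. For miR-17 the 3p share was 9.25 and 10.4% in the induced line, 11.7 and 11.8% in the uninduced line, 11.0 and 16.1% in the knockout lines and 4.56 and 3.48% in wild type, with the same separation. For miR-19a, where 3p is the main arm, the 5p share was 6.64 and 5.60% in the induced line, 17.6 and 25.6% in the uninduced line, 14.4 and 31.4% in the knockout lines and 4.07 and 3.81% in wild type. For miR-19b-1 the 5p share was 0.982 and 1.64% in the induced line, 2.64 and 3.69% in the uninduced line, 2.09 and 4.38% in the knockout lines and 0.312 and 0.0964% in wild type, with the counts of both miR-19b-3p copies in the denominator. In these 4 of the 5 hairpins the less abundant arm thus held a larger share in every Ago2-deficient library than in either wild type library. The same held for 22.7% of the 220 hairpins with at least 10 counts on each arm, a count added after the values were seen, in which the 3 groups share the wild type libraries. That minimum is summed over the 8 libraries, so sparse hairpins are included. A hairpin with no counts on both arms in some library was scored as not separated, which can only lower the 22.7%. For miR-20a the 3p share was 0.656 and 1.26% in the induced line, 0.496 and 0.545% in the uninduced line, 0.364 and 2.10% in the knockout lines and 0.463 and 0.477% in wild type. These shares rest on 2 to 11 counts of miR-20a-3p a library, and the knockout lines stood on either side of wild type.

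**Figure D3:**
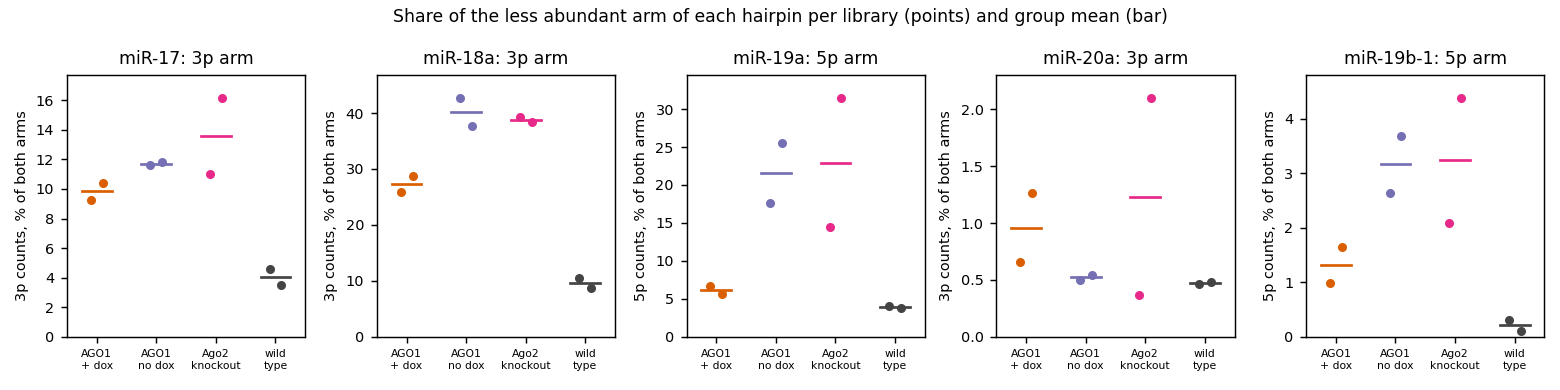
Counts of the less abundant arm as a percentage of the counts of both arms of its hairpin (linear axis from 0), with points for the 2 libraries of each group and bars for group means. Wild type, at the right of each panel, has the lowest shares for miR-17, miR-18a, miR-19a and miR-19b-1, while its miR-20a values (0.463 and 0.477%) lie between those of the knockout lines.

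The arm ratio was tested in an edgeR fit over 220 hairpins with at least 10 counts on each arm, with the library as a term. In the knockout against wild type 4 of the 5 hairpins were called, and 30.5% of all 220 were (13.2% with a higher and 17.3% with a lower 5p share). The log2 change of 5p over 3p was -2.59 ± 0.33 for miR-18a (edgeR adjusted p = 7.17e-07), -1.85 ± 0.30 for miR-17 (edgeR adjusted p = 1.74e-05), 2.69 ± 0.42 for miR-19a (edgeR adjusted p = 9.8e-06) and 3.85 ± 0.54 for miR-19b-1 (edgeR adjusted p = 2.77e-06). It was -1.04 ± 0.71 for miR-20a (edgeR adjusted p = 0.311), which was called without knockout line 1 (-2.14, edgeR adjusted p = 0.0314). The sign is negative where 5p is the main arm and positive where 3p is, so in each called hairpin the less abundant arm held a larger share. Such a share can rise through a gain of that arm or a fall of the main arm, and the levels of both are given above. The miR-19a value was 3.47 without knockout line 1 and 2.03 without line 2, and the miR-19b-1 value was 4.46 without knockout line 1, 4.83 without wild type A and 3.23 without wild type B. miR-19b-1-5p had 6 and 2 counts in wild type, so its hairpin met the minimum of 10 through the groups where this arm is higher. This limits what the miR-19b-1 arm ratio calls show in each comparison with wild type.

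In the uninduced line against wild type the same 4 hairpins were called, and 35.5% of all 220 were (16.8% with a higher and 18.6% with a lower 5p share). The log2 changes of 5p over 3p were -2.71 for miR-18a, -1.67 for miR-17, 2.64 for miR-19a and 3.90 for miR-19b-1 (edgeR adjusted p = 1.38e-07, 3.79e-05, 4.01e-06 and 5.04e-07), the last being 4.88 without wild type A and 3.28 without wild type B. In the induced line against wild type 3 of the 5 were called, and 36.8% of all 220 were (17.7% with a higher and 19.1% with a lower 5p share). They were miR-18a (-1.82 ± 0.27, edgeR adjusted p = 9.67e-06), miR-17 (-1.39 ± 0.27, edgeR adjusted p = 0.000213) and miR-19b-1 (2.62 ± 0.54, edgeR adjusted p = 0.000384), the last being 3.60 without wild type A and 2.00 without wild type B. miR-19a (0.68 ± 0.42, edgeR adjusted p = 0.230) was not called there. Against the knockout lines the uninduced line gave none of the 5 hairpins, and 0.455% of all 220.

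Between the induced and the uninduced line, the 5p over 3p ratio was lower for miR-19a (-1.96 ± 0.38, edgeR adjusted p = 0.00190) and miR-19b-1 (-1.27 ± 0.39, edgeR adjusted p = 0.0449), 2 of the 5 hairpins, with 6.36% of all 220 called (2.27% with a higher and 4.09% with a lower 5p share). The call for miR-19a was lost without uninduced B (-1.70, edgeR adjusted p = 0.0857). The call for miR-19b-1 was lost without induced A (-0.89, edgeR adjusted p = 0.378), induced B (-1.64, edgeR adjusted p = 0.0594), uninduced A (-1.58, edgeR adjusted p = 0.247) or uninduced B (-1.08, edgeR adjusted p = 0.246), and among hairpins with at least 50 counts on each arm (edgeR adjusted p = 0.0605). The miR-18a ratio was higher in the induced line without passing the test (0.88 ± 0.31, edgeR adjusted p = 0.0748). It was called without knockout line 1 (0.89, edgeR adjusted p = 0.0282) or 2 (0.89, edgeR adjusted p = 0.0308) and with only the 2 groups (0.90, edgeR adjusted p = 0.0336). For miR-17 the value was 0.29 ± 0.28 (edgeR adjusted p = 0.595) and was not called. Its 3p share in the induced line was above that of wild type by the shares given above.

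Because all 5 hairpins come from 1 transcript, the main arms were also set against each other within each library. For every count of miR-20a-5p there were 1.32 and 1.42 counts of miR-17-5p in the induced line, 0.725 and 0.696 in the uninduced line, 0.812 and 0.668 in the knockout lines and 1.69 and 1.91 in wild type. miR-17-5p thus exceeded miR-20a-5p in the induced line and in wild type, and was below it in all 4 libraries of the uninduced and knockout groups. The ratio of miR-18a-5p to miR-20a-5p was 0.334 and 0.352 in the induced line, 0.109 and 0.104 in the uninduced line, 0.135 and 0.132 in the knockout lines and 0.575 and 0.678 in wild type, so that wild type was highest and the induced line next. For miR-19a-3p the ratio was 0.395 and 0.411 in the induced line, 0.359 and 0.263 in the uninduced line, 0.336 and 0.257 in the knockout lines and 0.438 and 0.508 in wild type. The wild type values were again the highest, by smaller steps. The ratio of miR-19b-3p to miR-20a-5p, from 1.48 to 1.98 over the 8 libraries, overlapped between wild type and each other group except the induced line, where it was 1.75 and 1.53, against 1.79 and 1.98 in wild type. Counts of miR-19b-3p also belong to its copy on chromosome X, so its ratio is not confined to this transcript. The ratios to miR-20a-5p were not tested.

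**Figure D4:**
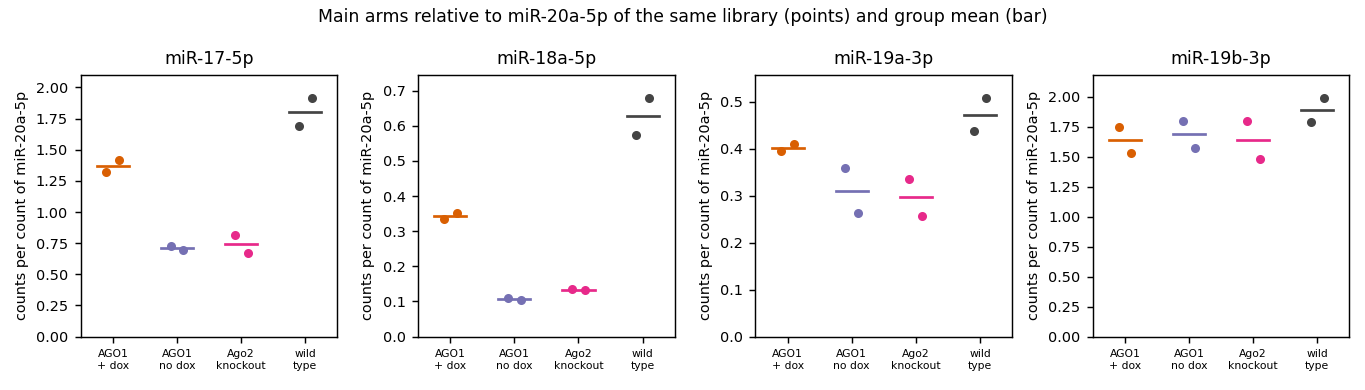
Counts of 4 main arms per count of miR-20a-5p in the same library (linear axis from 0), with points for the 2 libraries of each group and bars for group means. The miR-17-5p ratio is above 1 in the induced line and in wild type and below 1 in the uninduced line and the knockout lines, and the miR-19b-3p ratio is between 1.48 and 1.98 in all libraries. Counts of miR-19b-3p also belong to its copy on chromosome X.

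The list of relatives holds miR-92a from the same cluster and both arms of the paralogous miR-106a-363 and miR-106b-25 clusters, 18 miRNAs of which 17 were tested. In the knockout against wild type 5 were higher and 8 lower, where 57.7% of all tested miRNAs were called, with a median log2 fold change of -0.70 (-0.12 over all tested miRNAs). In the uninduced line against wild type 3 were higher and 10 lower, where 59.2% of all were called (median -1.22, and -0.14 over all). In the induced line against wild type 3 were higher and 7 lower, where 38.9% of all were called (median -0.91, and 0.01 over all). Between the induced and the uninduced line 2 were higher and 2 lower, where 28.8% of all were called (median -0.22, and 0.03 over all). Between the uninduced line and the knockout 0 of the 17 were called by edgeR, with 8 at an unadjusted p under 0.05, as were 0 of all 475, with 72 at such a p and 8 called by DESeq2 (median -0.69, and -0.01 over all). The largest calls were miR-92a-2-5p (3.65 ± 0.82 in knockout against wild type and 2.54 ± 0.77 in the induced line against wild type), miR-25-5p (2.91 in the uninduced line against wild type) and miR-363-3p, which was -3.07 in the knockout, -4.85 in the uninduced line and -3.12 in the induced line, each against wild type, and 1.73 in the induced against the uninduced line. miR-92a-2-5p rests on few counts, 3 and 1 in wild type, 7 and 9 in knockout lines 1 and 2, and 16 and 12 in the induced line. Its wild type counts lie under the filter's minimum of 10, so it was tested through the other groups. miR-92a-1-5p, the 5p arm of the last hairpin of the cluster, was the most negative call in the induced against the uninduced line (-1.34 ± 0.27, edgeR adjusted p = 0.00474).

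Relatives with the seed AAAGUGC can be set beside miR-17-5p and miR-20a-5p in the knockout against wild type. miR-106a-5p, which differs from miR-17-5p by U10A, was at -1.17 ± 0.21 on the log2 scale (edgeR adjusted p = 0.00122), miR-106b-5p was at -1.23 ± 0.23 (edgeR adjusted p = 0.00162), miR-93-5p at -1.0 ± 0.18 (edgeR adjusted p = 0.00133) and miR-20b-5p at -0.70 ± 0.20 (edgeR adjusted p = 0.0145). RefSeq lists 7 mouse miRNAs with this seed, of which miR-6383 had no counts. Of the other 6, a set named after its values were seen, 5 were called lower and miR-20a-5p was not, where 32.2% of all tested miRNAs were called lower. miR-18b-5p, which differs from miR-18a-5p by A18U and A20U, was lower in the knockout (-2.63 ± 0.35, edgeR adjusted p = 0.000180). It had 73.6 and 86.7 CPM in the induced line, against 57.2 and 66.1 CPM in the uninduced line, a difference that was not called (0.39 ± 0.35, edgeR adjusted p = 0.425), whereas miR-18a-5p was called higher there. Whether the 2 responses to doxycycline differ was not tested. From the last hairpin of the cluster, miR-92a-3p was at 0.21 ± 0.17 in the knockout against wild type (edgeR adjusted p = 0.301) and its opposite arm miR-92a-1-5p at 2.43 ± 0.28 (edgeR adjusted p = 7.72e-05).

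The miRNAs whose pattern over the 8 libraries was most like that of a member were ranked by Pearson's r of log2 CPM among 376 tested miRNAs outside the 10 members with a mean of at least 20 CPM, as a description, since all values of a library share its depth and groups set much of the pattern. For miR-17-5p they were miR-183-3p (r = 0.984), miR-24-3p (r = 0.978) and let-7f-5p (r = 0.977). For miR-19b-1-5p they were miR-25-5p (r = 0.995), miR-92a-1-5p (r = 0.994) and miR-195a-3p (r = 0.980). For miR-19b-3p they were miR-15a-5p (r = 0.909), miR-101a-3p (r = 0.863) and miR-26a-2-3p (r = 0.853). Among the members themselves r was 0.980 between miR-17-5p and miR-18a-5p, 0.872 between miR-19b-3p and miR-20a-5p, -0.357 between miR-17-5p and miR-20a-5p, and -0.903 between miR-17-5p and miR-19b-1-5p.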

How the data were processed

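Whole-number counts of mature miRNAs were deposited by the authors without normalization, with 1 column per library. Per the submitters' processing notes Bowtie and mm10 were used. Libraries were made with an Illumina TruSeq small RNA kit, per the labels' protocols. How reads were trimmed and matched, and to which miRNA release, is not given in the sources used here. Of the table's 2 header lines the first was used, since 1 name of the second does not match it.

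Members and lists were chosen with earlier results of these data known. All 10 members are named. For relatives the largest call in each direction is given, and for 3 members the 3 miRNAs most like them. Same-seed relatives were named after their values were seen.

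The 475 miRNAs passing filterByExpr (min.count 10), with 99.9% of counts, were tested with edgeR 4.0.16 (R 4.3.3, TMM, quasi-likelihood, 2-sided) in 1 fit of 8 libraries and 4 groups, with 4 residual degrees of freedom and a common biological coefficient of variation of 0.244. Benjamini-Hochberg adjustment ran over the 475 in each of 5 comparisons, and a call is an adjusted p under 0.05. Arm ratios used both arms of each library as columns. Scripts were tested on simulated data. Totals of 163467 to 1326638 counts set the precision, and floors and intervals cover counting error only. Alternatives were other scaling (RLE size factors, library totals), DESeq2 1.42.0, other filters, only the 2 groups compared, leaving out each library, and a block of the replicate letters. No sequencing batch is labelled.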

Additional observations from a re-analysis of the deposited data

How the results depend on the processing

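Of 902 values of single members and hairpins recomputed under the alternatives, 844 kept their side of the threshold, 27 lost a call and 31 gained one. Among the 844, 31 changed sign with neither value called, and 0 called values changed sign. Without TMM factors the median over all miRNAs was 0.16 for knockout against wild type (-0.12 with TMM) and -0.17 for the induced against the uninduced line (0.03 with TMM). The calls became 155 higher and 111 lower (121 and 153 with TMM) and 83 higher and 64 lower (100 and 37 with TMM). The 0 calls for the uninduced line against the knockout became 2 without TMM factors, 8 with DESeq2 and 14 with no filter. A fit of only the groups compared gave 28 arm ratio calls for induced against uninduced (14 in the fit of all groups) and 0 for uninduced against knockout (1 in that fit). With 1 library left out, calls ranged from 75 to 258 for the induced line against wild type (185 with all), 57 to 200 for induced against uninduced (137), and 0 to 61 for uninduced against knockout (0). A lone library is then assumed to vary like the other groups. For arm ratios they ranged from 46 to 90 for the uninduced line against wild type (78), 2 to 31 for induced against uninduced (14) and 0 to 3 for uninduced against knockout (1). The causes were not tested.

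With a replicate block of the letters in the 6 lettered libraries, calls were 321 for the uninduced and 250 for the induced line against wild type, and 192 for induced against uninduced. The labels do not say whether the letters pair the libraries, and correlations cannot decide it. The correlation of same-letter deviations was 0.171 between induced and uninduced, -0.00154 between induced and wild type and 0.0429 between uninduced and wild type. Under the block miR-17-3p, miR-18a-3p, miR-19a-3p and miR-19b-3p (0.77, 0.74, -0.45 and -0.42) were also called for the induced line against wild type, and miR-17-5p, miR-19b-3p and miR-20a-5p (0.51, -0.48 and -0.44) for induced against uninduced. Depth limits miR-19b-1-5p in wild type (6 and 2 counts) and miR-20a-3p everywhere.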

Other observations

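The knockout lines differed from each other in several rare arms of the cluster. In line 2, the shallowest library, miR-19a-5p stood at 166 CPM (33 counts), against 77.3 CPM (31 counts) in line 1, and miR-19b-1-5p stood at 95.6 CPM (19 counts), against 52.4 CPM (21 counts). miR-17-3p showed the same order with 181 and 137 CPM in lines 2 and 1, whereas miR-18a-3p had 116 and 119.7 CPM. Of the abundant arms, miR-20a-5p had 1409 and 1365 CPM in lines 2 and 1, miR-17-5p 941 and 1108 CPM, miR-19b-3p 2088 and 2449.8 CPM, and miR-19a-3p 362 and 459 CPM. Over all miRNAs the Spearman correlation between libraries was 0.902 in the knockout, against 0.973 to 0.985 in the other groups, and only the knockout pairs separate lines.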
